A study of Homo sapiens with 24 samples.

Results

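The addition of nucleotides to A771726 was examined at 24 h in A375 cells, an established line from a human malignant melanoma. The 6 libraries of this comparison, 3 from cells given 25 µM A771726 and 3 from cells given 25 µM A771726 plus nucleotides, were chosen by their labels out of 24 libraries in all. The series has 8 groups of 3 libraries, at 24 h and 48 h, and 2 further groups at 24 h served as references: cells given DMSO, the solvent, and cells given nucleotides alone. All 4 groups were A375 cells grown in DMEM with serum on standard plates, with no genetic change named in the labels, and ribosomal RNA was removed from their total RNA before sequencing. Which nucleotides were added, and at what dose, is not given in the sources used here. The labels do not say whether the replicates came from separate cultures, so p-values reflect no more than how far these libraries varied, and that variation may be technical. In bulk RNA, fewer cells of a type and less RNA per cell cannot be told apart.

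A771726, also called teriflunomide, is the active metabolite of leflunomide and inhibits dihydroorotate dehydrogenase (DHODH), the mitochondrial enzyme that oxidises dihydroorotate to orotate in the synthesis of pyrimidines. Cells that lack pyrimidines can still build UTP, CTP and their deoxy forms from nucleosides taken up from the medium, which is why added nucleotides or uridine are the usual control for an effect that runs through this enzyme. Shortage of pyrimidines slows ribosomal RNA synthesis and DNA replication and is a classic trigger of p53, the transcription factor that induces cell cycle arrest and apoptosis genes. The title of the series places the experiment in a study of DDX21, a nucleolar RNA helicase, in nucleotide stress.

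The authors deposited FPKM, a fragment count per gene divided by both the length of its transcript and the size of the library. Differences were taken on log2(FPKM + 1), a scale that understates the change of low genes, and were tested with limma with Benjamini-Hochberg adjustment over the 11622 genes that averaged at least 1 FPKM over the 6 libraries. Genes with an adjusted p under 0.05 were called. Per-library values are given in the order of replicates 1, 2 and 3.

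Nucleotides lowered 287 genes (2.47% of those tested) and raised 77 (0.663%) in cells given A771726. Of these, 183 fell and 46 rose by at least 2-fold. The lowered genes were led by p53 targets, and the raised genes by replication-dependent histones and the host genes of small nucleolar RNAs (snoRNAs). The lowered share of all calls was 78.8%, against 68.6% after median-of-ratios scaling, 68.5% after quantile normalization and 91.8% after scaling every library to the same FPKM sum. The last of these moved the median difference of all genes to -0.25, and the number of calls also depended on single libraries, falling to 7 raised and 38 lowered genes without replicate 1 of A771726 with nucleotides. Without replicate 2 or 3 of A771726, 14 and 10 genes were raised and 76 and 57 lowered, and without replicate 2 or 3 of A771726 with nucleotides, 30 and 16 were raised and 114 and 98 lowered. With the replicate number as a block, 1 gene was raised and 9 were lowered.

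Replicate 1 of A771726 and replicate 2 of A771726 with nucleotides stood apart from the other 24 h libraries. Their median Spearman correlations with the other 24 h libraries were 0.901 and 0.930 across genes, against 0.947 to 0.978 for the other 10. Their deviations from the mean of all 24 h libraries rose with transcript length, with rank correlations of 0.34 and 0.49 across genes. Deviations fell with length to a like degree, at -0.38 to -0.34, in replicates 1 and 3 of DMSO and replicate 3 of nucleotides alone and of A771726 with nucleotides. With GC content the correlation was -0.70 to -0.28 in replicate 2 and 0.38 to 0.70 in replicate 3 of the 4 groups, and -0.19 to 0.06 in replicate 1. The summed FPKM was 459325 to 582736 in the A771726 libraries and 573390 to 682517 in those with nucleotides, against 693359 to 773002 in the 2 reference groups. Read depth is unknown, since no counts were used. Melanoma line markers summed to 804 to 919 FPKM with A771726 and to 1019 to 1235 FPKM in the other 3 groups, with 8 of 12 tested. Over those 8, the median log2 difference was 0.25 for A771726 minus nucleotides alone. For nucleotides added to A771726 it was -0.19, with 3 estimates positive, so the sum did not follow most members. The marker MIA, a protein secreted by melanoma cells, was at 190, 345 and 408 FPKM with A771726 and 291, 194 and 374 FPKM with nucleotides added. Keratinocyte markers summed to 11.4 to 17.4 FPKM in all 12 libraries, and 5 of their 8 were under 0.1 FPKM.

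**Figure D1:**
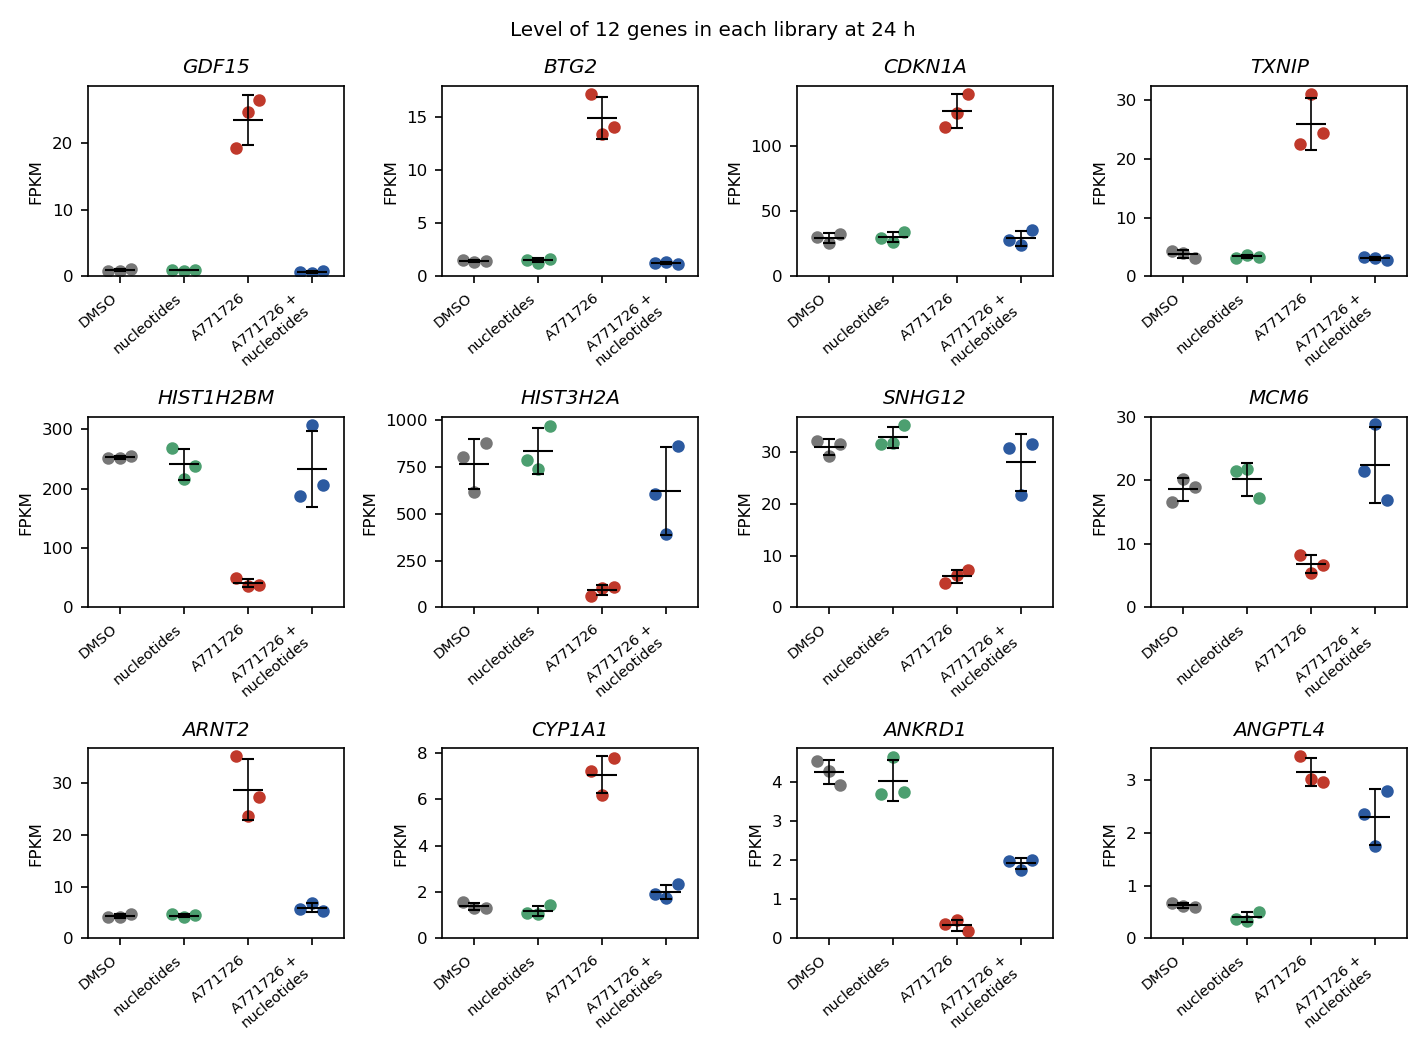
FPKM (y axis, linear, from 0) of 12 genes in each of the 12 libraries at 24 h by group (x axis); points are libraries, the dash is the mean and the bars are 1 SD (n = 3). In the panels from GDF15 to MCM6 the blue points of A771726 with nucleotides lie with the DMSO and nucleotides-alone points or next to them. For MCM6 they lie partly above the DMSO points. ANGPTL4 stays between the A771726 and the DMSO libraries.

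Of the 45 gene lists examined, the p53 targets held the most lowered genes. Of 37 tested, 23 fell and none rose, with a median difference of -1.32 against -0.04 over all genes tested. GDF15, a secreted stress cytokine, was at 19.3, 24.7 and 26.5 FPKM with A771726 and at 0.683, 0.502 and 0.80 FPKM with A771726 and nucleotides. It was at 0.872, 0.86 and 1.08 FPKM with DMSO. The groups with and without nucleotides were far apart, and the level with nucleotides was slightly below that of DMSO in each library. On the log2 scale GDF15 fell by 3.87 (SE 0.17, adjusted p = 0.000318, limma), and the mean FPKM was 35.5 times as high without nucleotides.

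CDKN1A encodes p21, the inhibitor of cyclin-dependent kinases that p53 uses to arrest cells. Its level was 114, 125 and 140 FPKM with A771726, 27.8, 24.3 and 35.3 FPKM with nucleotides added, and 30.4, 25.4 and 32.6 FPKM with DMSO, so that the libraries with nucleotides lay within or next to the DMSO range. CDKN1A fell by 2.09 (SE 0.18, adjusted p = 0.0036). BTG2, an antiproliferative gene, went from 17.07, 13.41 and 14.03 FPKM to 1.25, 1.35 and 1.17 FPKM, just under its 1.37 to 1.55 FPKM with DMSO, and fell by 2.80 (SE 0.14, adjusted p = 0.00043). TP53I3, an oxidoreductase gene induced by p53, fell by 2.88 (adjusted p = 0.00447), and FDXR, the mitochondrial ferredoxin reductase, by 2.45 (adjusted p = 0.0084). The call of FDXR was lost without replicate 2 or 3 of A771726 (-2.41 and -2.31, adjusted p = 0.0535 and 0.0508) or replicate 1 of A771726 with nucleotides (-2.49, adjusted p = 0.0526).

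Of 25 apoptosis regulators tested, 2 fell and none rose. BBC3, which encodes the BH3-only protein PUMA, was at 12.71, 18.003 and 21.60 FPKM with A771726 and at 2.71, 1.39 and 4.25 FPKM with nucleotides, which spans its DMSO range of 1.93 to 3.08 FPKM. It fell by 2.33 (SE 0.32, adjusted p = 0.0163), and BAX, the pore-forming effector of the same family, by 1.47 (SE 0.21, adjusted p = 0.0178). The BBC3 call was lost without replicate 2 or 3 of A771726 (-2.29 and -2.17, adjusted p = 0.0796 and 0.085) or replicate 1 of A771726 with nucleotides (-2.35, adjusted p = 0.0959). PMAIP1, the p53 target that encodes the BH3-only protein NOXA, differed by -0.20 (adjusted p = 0.711). RRM2B, the p53-induced subunit of ribonucleotide reductase, fell by 1.32 (adjusted p = 0.0245) and was the only called gene of 34 in pyrimidine synthesis and salvage. DHODH itself was at 4.49, 5.64 and 5.69 FPKM with A771726 and 7.77, 6.23 and 8.20 FPKM with nucleotides, a difference of 0.42 that did not pass the test (SE 0.16, adjusted p = 0.242).

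Other lowered genes came from several functions. TXNIP, the thioredoxin-interacting alpha-arrestin that restrains glucose uptake, was at 22.5, 31.0 and 24.4 FPKM with A771726 and at 3.37, 3.05 and 2.76 FPKM with nucleotides, beside 3.08 to 4.31 FPKM with DMSO. It fell by 2.72 (SE 0.16, adjusted p = 0.000902), the only call among the 6 alpha-arrestin and MondoA target genes tested. PVRL4, which encodes the adhesion receptor nectin-4, fell by 2.96 (adjusted p = 0.00043) from 6.18, 7.95 and 7.95 FPKM to at most 0.103 FPKM. KRT8, a simple-epithelium keratin, fell by 2.43 (adjusted p = 0.000902), while its partner KRT18 differed by 0.13 (adjusted p = 0.875). The long noncoding RNA LINC01021 fell by 2.48 (adjusted p = 0.00043). RPL13AP20, a ribosomal protein pseudogene whose reads may be shared with near-identical copies, fell by 2.73 (adjusted p = 0.00043).

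Inflammatory and stress genes fell in smaller numbers. Of 18 NF-kB targets and cytokines, 5 fell and none rose, among them TRAF1, a signalling adaptor, which fell by 1.73 (adjusted p = 0.00588), and CXCL8, the neutrophil chemokine, by 1.28 (adjusted p = 0.0205). Of 31 interferon response genes, 4 fell: OAS1, HERC5, IFI6 and IFIT1, by 1.53, 1.14, 1.12 and 0.95. Of 24 immediate early genes, 4 fell, including ATF3, a stress-induced transcription factor, by 2.14 (adjusted p = 0.00254) and FOS by 1.02 (adjusted p = 0.0194). The lysosomal genes CD68, LYZ and CTSK fell by 1.95, 1.70 and 1.30, as 3 of 38 tested. CD68 and LYZ are also leukocyte markers, whose sum was 24.1 to 37.3 FPKM with A771726 and 7.17 to 8.64 FPKM in the other groups. The other 7 of the 9 leukocyte markers were under 0.1 FPKM.

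The replication-dependent histones held the most raised genes of the 45 lists. These genes make the bulk of new histone protein in S phase. Of 63 tested, 17 rose and none fell, with a median difference of 1.38, and HIST1H2BB, an H2B gene, had the largest rise among the named genes. Of the 17 H2B genes tested 5 rose, of the 16 H2A genes 3, of 12 H3 genes 2, of 13 H4 genes 4 and of 5 linker H1 genes 3. Promoters of H2B genes are shown because they are known for a shared octamer element. For 12 of the 17 H2B genes a RefSeq promoter (GRCh38.p14) was matched. The octamer ATTTGCAT, searched on both strands in the 250 bases before the start, was present in 8 of these 12 (66.7%), in 35.2% of the 54 matched histone promoters and in 1.63% of all 35116 RefSeq promoters of the same length. Capitals mark it in 3 H2B promoters on chromosome 6. In HIST1H2BB, chr6:26043786-26043873 on the minus strand, it begins 120 bases before the start, and in HIST1H2BM, chr6:27814934-27815021 on the plus strand, 48 bases before it. In HIST1H2BO, chr6:27893236-27893323 on the plus strand, it lies in the opposite orientation.
HIST1H2BB: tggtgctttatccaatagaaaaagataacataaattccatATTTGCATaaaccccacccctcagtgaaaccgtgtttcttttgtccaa
HIST1H2BM: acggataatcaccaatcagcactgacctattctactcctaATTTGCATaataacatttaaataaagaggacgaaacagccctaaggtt
HIST1H2BO: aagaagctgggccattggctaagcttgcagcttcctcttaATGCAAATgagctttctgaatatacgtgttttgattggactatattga

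Of these, HIST1H2BM was at 49.2, 36.7 and 38.1 FPKM with A771726, at 188, 307 and 206 FPKM with nucleotides added, and at 252, 252 and 255 FPKM with DMSO. The DMSO level lay inside the range of the libraries with nucleotides, and every A771726 library was far below both. HIST1H2BM rose by 2.45 (SE 0.23, adjusted p = 0.00443, limma). HIST1H2BB was at 39.5, 164 and 152 FPKM with A771726, and replicate 1 was the lowest. It was at 778, 511 and 915 FPKM with nucleotides, with replicate 2 lowest, against 944, 854 and 959 FPKM with DMSO, and rose by 2.83 (SE 0.55, adjusted p = 0.0453). HIST1H2BO was not called, at a difference of 1.87 (adjusted p = 0.0758). HIST3H2A and HIST3H2BB rose by 2.70 and 2.48, the linker histone HIST1H1A by 2.51 and HIST1H3J by 2.48. Near-identical histone copies can share reads, so single members are uncertain. The calls of HIST1H2BB and HIST3H2BB were lost without any 1 library other than replicate 1 of A771726, with differences of 2.65 to 3.18 and 2.29 to 2.76 and adjusted p of 0.0865 to 0.183 and 0.0793 to 0.172. HIST3H2A was lost without replicate 2 or 3 of A771726 or replicate 1 of A771726 with nucleotides (2.68 to 2.84, adjusted p = 0.0508 to 0.081), and without the last of these HIST1H1A and HIST1H3J stood at 2.39 and 2.47 (adjusted p = 0.0506 for both).

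The rest of S phase was called in fewer genes. Of 44 DNA replication and S phase genes, 4 rose and none fell. MCM6, a subunit of the replicative helicase, was at 8.29, 5.45 and 6.63 FPKM with A771726 and at 21.5, 28.8 and 16.9 FPKM with nucleotides. Of the latter, 21.5 and 28.8 FPKM lay above its DMSO range of 16.6 to 20.2 FPKM. MCM6 rose by 1.57 (SE 0.23, adjusted p = 0.0196). MCM5, E2F2 and UHRF1, which encode another helicase subunit, an S phase transcription factor and a DNA methylation maintenance factor, rose by 1.56, 1.13 and 1.10. PCNA, the sliding clamp, differed by -0.02 (adjusted p = 0.982). None of 40 G2/M and mitosis genes was called.

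The snoRNA host genes rose as well. They are transcribed as long RNAs whose introns yield the small RNAs that guide ribosomal RNA modification. Of 23 tested, 6 rose and none fell, with a median difference of 0.92. Many such genes, like those for ribosomal proteins, begin at a terminal oligopyrimidine tract, taken here as a C at the annotated start followed by at least 4 pyrimidines on the same strand. This start was found in 6 of 20 matched host genes, in 42 of 63 ribosomal protein genes (66.7%) and in 4.07% of all promoters. The 15 bases on each side of the start are shown for 3 host genes, SNHG12 (chr1:28581859-28581888, minus strand), SNHG5 (chr6:85678719-85678748, minus strand) and ZFAS1 (chr20:49278627-49278656, plus strand), and for RPL22L1 (chr3:170870181-170870210, minus strand), a ribosomal protein paralog. Capitals mark the tract from the start onward.
SNHG12: tcgcggcttcagcgcCCTTTCTCCCCgccg
SNHG5: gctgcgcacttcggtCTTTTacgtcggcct
ZFAS1: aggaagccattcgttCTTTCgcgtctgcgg
RPL22L1: cgcggccgtagcttcCTCTCTgctctcgcg

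SNHG12 was at 4.66, 6.23 and 7.14 FPKM with A771726 and at 30.8, 21.7 and 31.6 FPKM with nucleotides, where replicates 1 and 3 reached the DMSO range of 29.2 to 32.1 FPKM and replicate 2 did not. It rose by 2.05 (SE 0.21, adjusted p = 0.00588), and by 1.97 without replicate 1 of A771726 with nucleotides (adjusted p = 0.0506). SNHG5 rose by 1.59 (adjusted p = 0.0067), SNHG3 by 1.47 (adjusted p = 0.00389) and DANCR by 1.60 (adjusted p = 0.0314). GAS5, the host of a large snoRNA set, was at 65.8, 129 and 114 FPKM with A771726 and 252, 196 and 236 FPKM with nucleotides, and its difference of 1.19 missed the threshold (adjusted p = 0.0673). RPL22L1 rose by 1.79 (SE 0.25, adjusted p = 0.018), a call lost without replicate 3 of A771726 or replicate 1 or 3 of A771726 with nucleotides (1.70 to 1.80, adjusted p = 0.0744 to 0.118). GAS5 was called without replicate 1 of A771726, at 0.90 (adjusted p = 0.0481, limma). It was also called under quantile normalization, with equal FPKM sums and with all 12 libraries (adjusted p = 0.0384, 0.0415 and 0.00325). The same held without both libraries that stood apart and with length and GC trends removed (adjusted p = 0.0124 and 0.0077). Over the other alternatives its adjusted p ran from 0.0633 to 0.286.

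The ribosome itself moved less. None of the 77 cytosolic ribosomal protein genes was called, although all 77 estimates were positive with a median of 0.45, and the median was -0.02 under quantile normalization. Among 57 nucleolar and ribosome biogenesis genes, 2 rose: NPM1, the nucleolar chaperone nucleophosmin, by 0.99 (adjusted p = 0.0464) and DKC1, the pseudouridine synthase of box H/ACA particles, by 0.81 (adjusted p = 0.022). DDX21 was at 50.5, 61.1 and 49.1 FPKM with A771726 and at 87.8, 87.6 and 71.0 FPKM with nucleotides, so the groups did not overlap, but its difference of 0.61 was not called (SE 0.16, adjusted p = 0.102). It was called when all 12 libraries were fitted together (adjusted p = 0.0198) and with length and GC trends removed (0.59, adjusted p = 0.0179), and over the other alternatives its adjusted p ran from 0.0675 to 0.438. In the P-TEFb network, none of 27 genes was called. CDK9, its kinase, and HEXIM1, its inhibitor, differed by -0.05 and -0.12 (adjusted p = 0.947 and 0.864), with signs that changed to positive without replicate 1 of A771726 (0.12 and 0.08), and for CDK9 also under median-of-ratios scaling (0.05). MYC differed by 0.54 (adjusted p = 0.0785) and was called with no filter, with all 12 libraries and with the trends removed (adjusted p = 0.0221, 0.00495 and 0.0463). Over the other alternatives its adjusted p ran from 0.0546 to 0.399.

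Of 28 integrated stress response genes, 2 rose and 2 fell. SLC7A11, the cystine transporter, rose by 1.59 (adjusted p = 0.0119) and SLC1A5, the glutamine transporter, by 1.13 (adjusted p = 0.0154). ATF3 and SESN2 were the 2 that fell, and ATF4, the transcription factor of this response, differed by 0.89 (adjusted p = 0.12). YARS and MARS, the tyrosyl- and methionyl-tRNA synthetases, rose by 1.04 and 0.76 as 2 of 20. Of 27 heat shock proteins and chaperones only HSPA8, the constitutive HSP70 chaperone, was called. It rose by 1.43 (adjusted p = 0.0119), and was not called without replicate 2 or 3 of A771726 or replicate 1 or 3 of A771726 with nucleotides (1.39 to 1.52, adjusted p = 0.0501 to 0.0959). In the matrix list of 32 genes, THBS1 rose by 1.56 and ITGA2, TIMP1 and SPARC fell by 1.56, 0.93 and 0.69. Of 25 neural crest and melanoma state genes, 2 rose and 1 fell, with a median difference of 0.02. NRG1, a ligand of ERBB receptors, fell by 1.61 (adjusted p = 0.00258), and VIM, vimentin, rose by 0.99 (adjusted p = 0.0201). MITF, the pigment cell regulator, fell by 1.04 (adjusted p = 0.0245) and was the only called gene of 8 pigment cell genes.

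No gene was called among 58 respiratory chain genes, 76 mitochondrial ribosomal proteins, 33 proteasome subunits, 32 translation factors, 16 class I antigen presentation genes or 14 fatty acid synthesis genes. Their median differences ran from -0.34 for antigen presentation to 0.37 for the translation factors. Single genes were called in 20 purine synthesis genes (AK1, which fell by 1.34), 23 cholesterol synthesis genes (STARD4, which fell by 0.97) and 29 SR proteins and hnRNPs (SRSF2, which rose by 1.02).

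To ask how far each response was undone, the response was taken as A771726 minus nucleotides alone, and what remained as A771726 with nucleotides minus DMSO, a pair of contrasts that share no library. In the first, 668 genes were higher (5.75%) and 364 lower (3.13%) with A771726. The 1032 calls of the first were 175, 293 and 271 without replicates 1, 2 and 3 of nucleotides alone, 1716 without replicate 1 of A771726 and 382 without replicate 3. Same-numbered libraries of these groups deviated together (r = 0.17, 0.28 and 0.11), and with the replicate number as a block 1952 genes were called. In the second, 1 gene was higher (0.0086%) and 1 lower (0.0086%). At an unadjusted p under 0.05, the second contrast held 394 genes (3.39%), and without replicates 1, 2 and 3 of A771726 with nucleotides 6, 4 and 4 genes were called.

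The 346 genes called in the response with at least a 2-fold difference, 240 higher and 106 lower with A771726, were classed by the 95% interval of what remained. In 309 of them (89.3%) the interval held 0 and lay within 2-fold of DMSO either way, here called full restoration. The response and the nucleotide estimate use the same A771726 libraries, so their opposite signs were largely set by how these genes were chosen. They are no separate support for restoration. The nucleotide estimate ran against the response in all 309, past the adjusted test in 219, but was only -0.05 for ANKRD28 (adjusted p = 0.937). This ankyrin repeat gene was listed at 0 in all libraries of nucleotides alone, which gave its response of 4.48, and it lay 4.48 below DMSO at 48 h (log2 difference -4.48), so its class says nothing of restoration. In 24 (6.94%) it excluded 0 on the side of the response, at under 75% of the response, here called partial. In 2 it excluded 0 at 75% or more, in 1 it lay past the DMSO level, and in 10 it was too wide to class. The interval excluded 0 in 27 of the 346 (7.80%), beside 3.39% of all genes tested, and PLCG2 was the only one of these to pass the adjusted test. The partial class is therefore a description by unadjusted intervals. The classes follow the width of the interval as well as what remained. HIST1H4A was classed as full with -0.46 left (95% interval -0.94 to 0.02). The 15 partial genes that A771726 lowered had a median of -0.37 left. With a margin of 1.5-fold in place of 2-fold, 204 genes were classed as full, and with the replicate block 302 were full and 49 partial. The filter on mean FPKM used only the 6 libraries with A771726. A gene that A771726 lowered under 1 FPKM therefore passed only if it was higher with nucleotides added. With no filter, 83.3% of 306 genes were full. The partial class counted 7, 11 and 15 genes without DMSO replicates 1, 2 and 3, and 14 and 13 without replicates 1 and 3 of nucleotides alone. It counted 40 without replicate 2 of A771726, and 15 and 54 without replicates 1 and 3 of A771726 with nucleotides. The full class fell to 150, 192 and 188 genes without replicates 1, 2 and 3 of nucleotides alone, where 170, 219 and 211 genes remained to be classed.

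**Figure D2:**
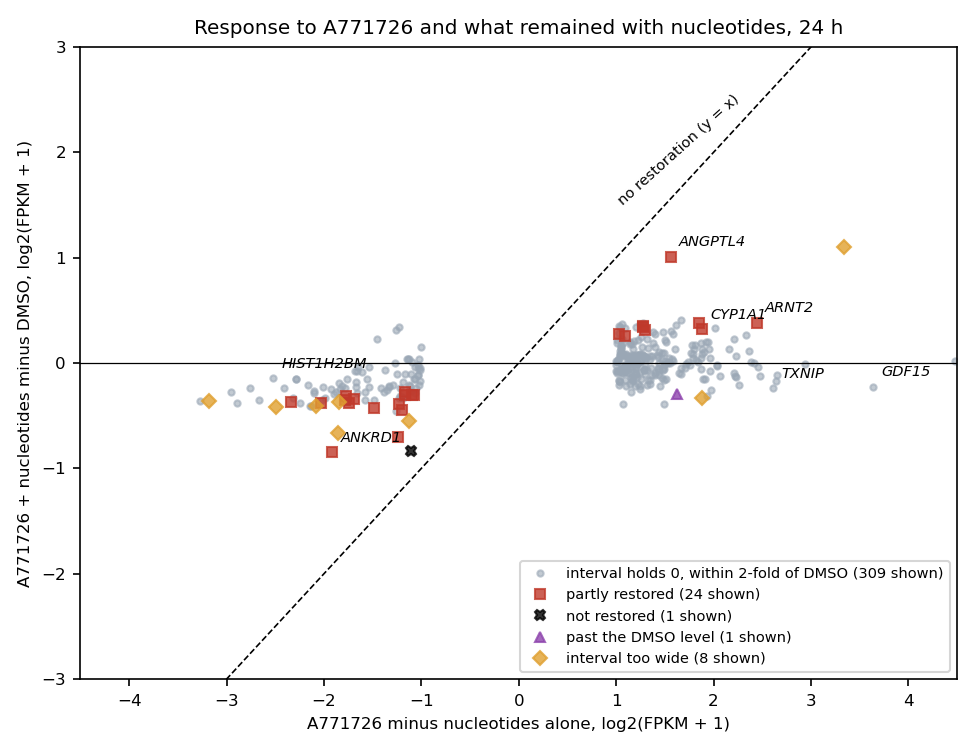
Each point is 1 of the 346 genes that responded by at least 2-fold; x axis, A771726 minus nucleotides alone; y axis, A771726 with nucleotides minus DMSO, both in log2(FPKM + 1). The 309 fully restored genes (grey) lie between -0.46 and 0.41 on the y axis and not along the dashed line of no restoration. ANGPTL4 and ANKRD1 lie farthest from 0 among the named points, and 3 genes (PLCG2, MIR5047 and SNAR-C3) fall outside the axes.

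The genes raised by A771726 were brought back evenly. Of the 240, the median share of the response that remained was 0.561%, -2.19% and 1.73% in replicates 1, 2 and 3 of A771726 with nucleotides. For the 106 lowered genes it was 11.1%, 32.0% and -0.0518%, so that replicate 2, the library that stood apart, kept the most and replicate 3 none. Its part in this share was not tested.

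Lists were classed where the median response was at least 0.5 on the log2 scale, which left 35 of the 45 unclassed whatever share remained. Some of these reached 0.5 under median-of-ratios scaling, with responses of -0.51 to -0.59. They were ribosome biogenesis, translation factors, aminoacyl-tRNA synthetases, heat shock proteins, ribosomal protein paralogs and SR proteins with hnRNPs. In the main fit 25.3% to 60.9% of their median responses remained, and none reached 0.5 under quantile normalization (-0.13 to -0.38). With equal FPKM sums their responses were -0.04 to 0.03, where the median over all genes tested was 0.42. By function, the p53 targets had a median response of 1.22 and a median remainder of -0.05, and the medians of the 3 libraries with nucleotides ran from -0.13 to -0.03. For the NF-kB targets the same medians were 0.62 and 0.03, for the interferon response 0.54 and -0.02, and for 8 pigment cell genes 0.52 and -0.06. Each of these met the limit set for full restoration of a list, a remainder under 25% of the response. The interferon response missed the 0.5 needed under median-of-ratios scaling and quantile normalization (0.46 and 0.36), the pigment cell genes under median-of-ratios scaling (0.43), and the NF-kB targets without replicate 1 of A771726 (0.46). With equal FPKM sums the responses of the interferon, pigment cell and NF-kB lists were 0.88, 0.96 and 1.04. The 2 tested leukocyte markers, CD68 and LYZ, were in this class with medians of 1.80 and -0.10.

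Histones and snoRNA hosts met it as well, with less margin. The histone response had a median of -1.69 and the remainder -0.33, or 19.5%, which was -0.24, -0.75 and 0.03 in replicates 1 to 3 of A771726 with nucleotides and -0.09 without replicate 2. The snoRNA hosts had medians of -1.07 and -0.24, or 22.0%, and -0.11 of remainder without that replicate. At 48 h, the 3 libraries of A771726 with nucleotides differed from DMSO by medians of 0.03 to 0.09 for the histones and -0.05 to 0.03 for the snoRNA hosts.

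Cytosolic ribosomal proteins fell in the partial range, with a median response of -0.73, a remainder of -0.31 and a share of 42.2%. The size of both depended on the libraries that stood apart: the remainder was -0.16, -0.62 and -0.13 in replicates 1 to 3, and -0.15 without replicate 2. The response was -1.31 in replicate 1 of A771726 and -0.36 and -0.52 in the other 2. Without both, the response was -0.43, under the 0.5 needed for a class, and the share was 34.95%. Under quantile normalization the response was -0.015 and the remainder -0.05, so the direction was not resolved there. With equal FPKM sums the response was -0.26 and the remainder -0.06. At 48 h the medians were 0.02, 0.02 and 0.05.

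The aryl hydrocarbon receptor genes were also in the partial range. This receptor is a ligand-activated transcription factor that induces xenobiotic-metabolising enzymes such as CYP1A1. Of 7 genes tested, 3 fell with nucleotides, and the medians of response and remainder were 0.54 and 0.25, or 45.2%. The response was 0.89 in replicate 1 of A771726 and 0.39 and 0.35 in the others. It was under 0.5 without that replicate (0.37), with median-of-ratios scaling (0.47) and with quantile normalization (0.39), and the share was 49.1% without both libraries that stood apart. With equal FPKM sums the response was 0.92 and the remainder 0.47. The remainder was 0.29, 0.37 and 0.01 by library at 24 h, and 0.28, 0.29 and 0.32 at 48 h. The 2 tested marker genes of fibroblasts and endothelium, LUM and PDGFRB, were also in the partial range with 34.99% of a median response of 0.57. They summed with the other 7 of their list to at most 5.36 FPKM in any library.

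**Figure D3:**
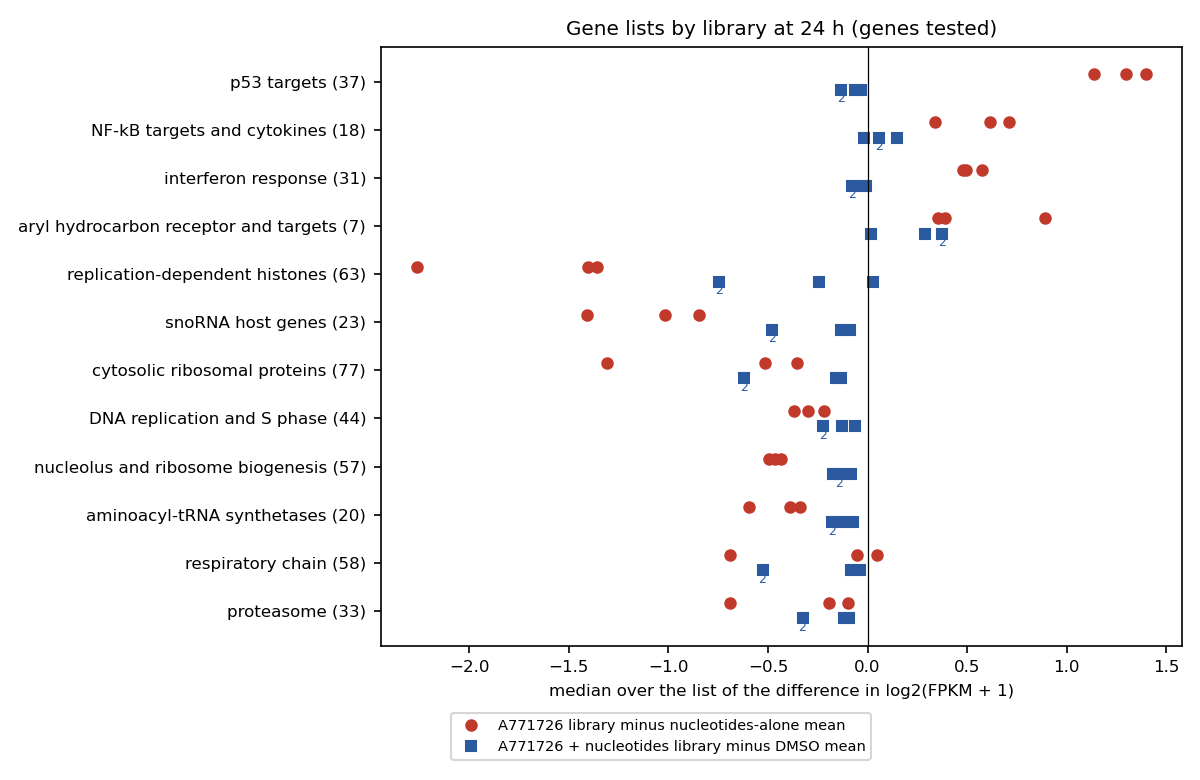
Median difference in log2(FPKM + 1) (x axis) over each gene list (y axis, genes tested in brackets) in single libraries at 24 h; red circles are A771726 libraries minus the mean of nucleotides alone, blue squares A771726 with nucleotides libraries minus the mean of DMSO, and the digit 2 marks replicate 2. The squares of the p53 targets lie between -0.13 and -0.03, and replicate 2 is the lowest square for histones (-0.75), snoRNA hosts (-0.48) and ribosomal proteins (-0.62).

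ANGPTL4 stood out among the single genes. It encodes a secreted inhibitor of lipoprotein lipase and is a standard target of PPAR nuclear receptors. Its level was 0.6664, 0.6161 and 0.5849 FPKM with DMSO, 0.373, 0.335 and 0.508 FPKM with nucleotides alone, 3.45, 3.02 and 2.96 FPKM with A771726, and 2.34, 1.75 and 2.79 FPKM with A771726 and nucleotides. The libraries with nucleotides lay below all those with A771726 alone and well above all those with DMSO. The response was 1.56, and 1.01 of it remained (95% interval 0.68 to 1.34, adjusted p = 0.544), while the effect of nucleotides, -0.34, was not called (SE 0.16, adjusted p = 0.355). Every library of nucleotides alone lay below those of DMSO. Measured against DMSO, the response was therefore smaller than 1.56 and the share that remained larger. The interaction was not called either, so a nucleotide effect particular to A771726 was not shown. At 48 h the levels were 3.02, 3.49 and 3.37 FPKM with A771726 and nucleotides against 0.498, 0.476 and 0.576 FPKM with DMSO, a difference of 1.5001 (SE 0.07, adjusted p = 0.000723, limma). It was the only gene higher than DMSO in the 48 h comparison (0.0086%), in which 4 were lower (0.0344%).

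ANKRD1, a cardiac ankyrin repeat gene induced by YAP, was lowered by A771726 and was in the partial class. It was at 4.56, 4.30 and 3.94 FPKM with DMSO, 0.362, 0.466 and 0.183 FPKM with A771726, and 1.99, 1.76 and 2.02 FPKM with A771726 and nucleotides. The 3 groups did not overlap, and the middle one was the tightest of them. Nucleotides raised it by 1.13 (SE 0.14, adjusted p = 0.0119), and -0.85 of a response of -1.92 remained (95% interval -1.09 to -0.61). The rise was not called without replicate 3 of A771726 or replicate 1 or 3 of A771726 with nucleotides (1.05 to 1.12, adjusted p = 0.0525 to 0.104). At 48 h, 1.26, 1.66 and 1.24 FPKM with A771726 and nucleotides stood against 2.95, 2.88 and 3.18 FPKM with DMSO, a difference of -0.75 (adjusted p = 0.131).

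CYP1A1 was at 7.23, 6.21 and 7.79 FPKM with A771726 and fell by 1.43 (SE 0.15, adjusted p = 0.00629) to 1.92, 1.74 and 2.35 FPKM. All 3 of those values were above the 1.30 to 1.57 FPKM seen with DMSO. What remained was 0.32 (95% interval 0.04 to 0.60) at 24 h and 0.50 (adjusted p = 0.317) at 48 h. ARNT2, a dimerisation partner of such receptors, fell by 2.08 (adjusted p = 0.00389) from 35.2, 23.6 and 27.3 FPKM to 5.65, 6.86 and 5.31 FPKM, all above its 4.09 to 4.65 FPKM with DMSO. AHR itself returned to 20.3, 24.9 and 16.5 FPKM, around its 18.6 to 22.0 FPKM with DMSO. PDK4, the kinase that inhibits pyruvate dehydrogenase, fell by 0.85 (adjusted p = 0.0336) to 2.98, 3.41 and 2.52 FPKM, against 2.04, 2.59 and 1.80 FPKM with DMSO, so those ranges overlapped. The fall of CYP1A1 was not called without replicate 3 of A771726 (-1.36, adjusted p = 0.0508) or replicate 1 of A771726 with nucleotides (-1.41, adjusted p = 0.0636), and that of PDK4 was not called without any 1 of the 6 libraries (-0.92 to -0.76, adjusted p = 0.0587 to 0.197).

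The partial class was also followed to 48 h by the direction of the response. All 9 of its genes that A771726 raised, among them ANGPTL4, CYP1A1, PDK4, TMEM2, TSPAN12 and MOCOS, were above DMSO at 48 h as well, with a median remainder of 0.34 at both times. Of its 15 lowered genes, 7 were below DMSO at 48 h, and their median remainder was -0.37 at 24 h and 0.00 at 48 h. Those near DMSO at 48 h included 4 histones, RAN, HSPA8, RPL22L1 and SNHG16, whereas SNORA16A, a small nucleolar RNA, was at -1.65 (SE 0.48), ANKRD1 at -0.75, HIST1H4E at -0.25, MTHFD2, a mitochondrial folate enzyme, at -0.24 and GAS5 at -0.20. Only ANGPTL4 of the 24 was called at 48 h, and no test of the difference between the 2 directions was made. Of the 309 fully restored genes, 146 lay on the same side of DMSO at 48 h as at 24 h. That share is close to the one of the 15 lowered partial genes.

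**Figure D4:**
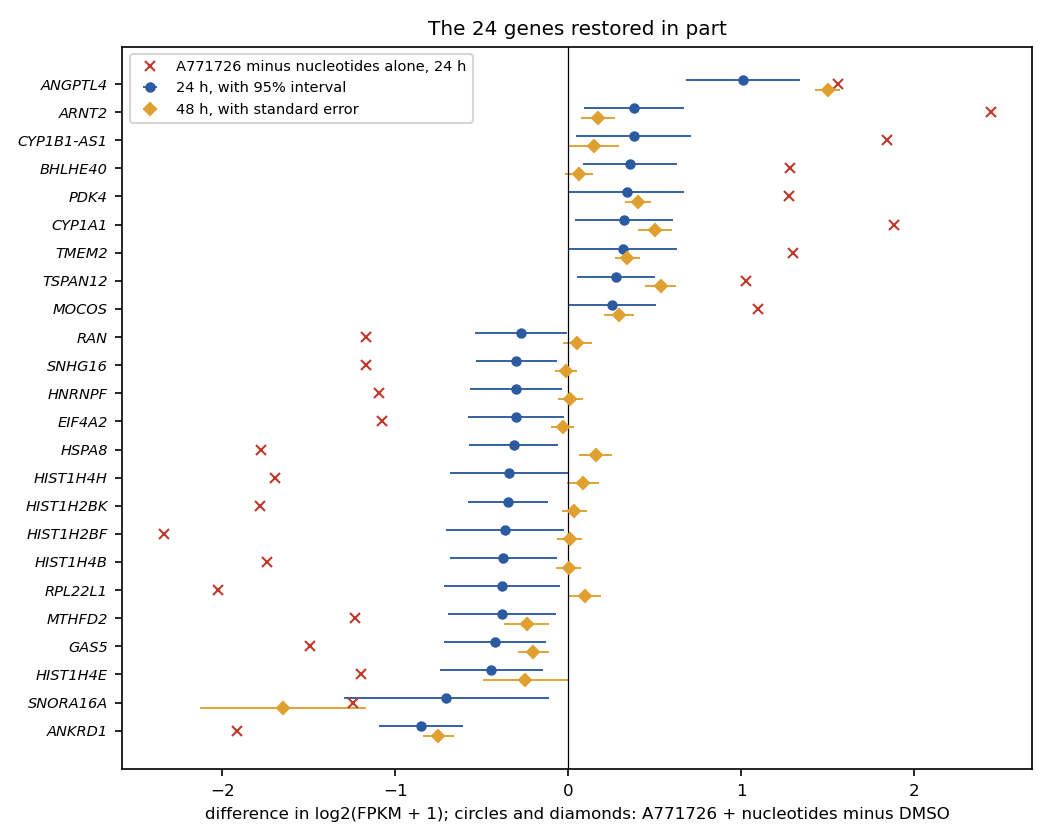
The 24 partly restored genes (y axis) with 3 differences in log2(FPKM + 1) (x axis): the response at 24 h (crosses), what remained at 24 h with its 95% interval (circles) and what remained at 48 h with its standard error (diamonds). For ANGPTL4 the remainder is 1.01 at 24 h, below the response of 1.56 over nucleotides alone, and 1.5001 at 48 h. Most lowered genes except ANKRD1, SNORA16A, HIST1H4E, GAS5 and MTHFD2 lie near 0 at 48 h.

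The genes classed as not restored need reading with care. PLCG2, which encodes a phospholipase C, was listed at 0 in all DMSO and nucleotides-alone libraries and at 566.5, 1165.1 and 1075.2 FPKM with A771726 and 1175.0, 991.1 and 1140.5 FPKM with nucleotides added. At 48 h it was listed at 0 again in all 3 libraries of A771726 with nucleotides. In these files an exact 0 can be a failed estimate, and EEF1A1, the elongation factor gene that every cell uses, was listed at 0 in the same 3 libraries at 48 h. The gene lower than DMSO at 24 h was SNORA77, a small nucleolar RNA listed at 0 in all 3 libraries of A771726 with nucleotides. It was named after its value was seen. SNORA72, a small nucleolar RNA, was at 46.5, 92.2 and 55.8 FPKM with A771726, 85.1, 63.9 and 95.2 FPKM with nucleotides and 174, 144 and 118 FPKM with DMSO. The libraries with and without nucleotides overlapped, and its difference of 0.37 was not called (adjusted p = 0.608). SHC4, an adaptor protein gene, was the gene past the DMSO level, at 1.55, 1.21 and 1.19 FPKM with nucleotides against 1.77, 2.04 and 1.72 FPKM with DMSO.

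Whether nucleotides act differently in the presence of A771726 was tested as an interaction over the 12 libraries. The nucleotide effect was higher with A771726 in 143 genes (1.23%) and lower in 390 (3.36%). It was lower for 24 of the 37 p53 targets and higher for 23 of the 63 histones and 10 of the 23 snoRNA hosts. For ANGPTL4 the interaction was -0.13 (adjusted p = 0.827). The count of 533 was 253, 328 and 310 without DMSO replicates 1, 2 and 3, 266, 331 and 305 without replicates 1, 2 and 3 of nucleotides alone, 342 without replicate 3 of A771726, and 289 without replicate 1 of A771726 with nucleotides.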

How the data were processed

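RNA was measured by sequencing of ribosome-depleted total RNA from A375 cells, per the labels. The submitters' processing notes name cutadapt, TopHat2 (2.0.11), Cufflinks (2.2.1) and the build hg19. The deposited values are FPKM per gene with no counts, so depth, and an interval from counting, could not be had. A treatment note describing chromatin immunoprecipitation was not used. Here log2(FPKM + 1) of 11622 of 25268 genes was fitted with limma 3.58.1 in R 4.3.3, each comparison on its own groups (6 libraries, 12 for the interaction), without trend, robust estimation or replicate block, after tests on simulated data. No batch is named in the labels, and bulk values cannot tell fewer cells from less RNA per cell. Same-numbered libraries of A771726 with and without nucleotides did not deviate together (r = -0.28, -0.27 and 0.20). Of the 6 pairs of 24 h groups, only A771726 and nucleotides alone had every r over 0.1. The GC trends of replicates 2 and 3 had the same sign in all 4 groups. Blocked counts are therefore given beside the nucleotide and the response comparisons. No 24 h libraries were near copies (highest share of identical values 0.00597% over 66 pairs). Named genes were the 10 with the largest rise and the 10 with the largest fall among called genes, provided that the higher group averaged at least 5 FPKM, the groups did not overlap, and the lower one was not listed at 0 throughout (symbols of short RNAs, LOC entries and clones left out). To these came up to 4 called and 2 uncalled members of each list, up to 8 genes of each class not fully restored, and 8 fixed genes. The comparison, the lists and the classes were chosen with earlier results of these data known. Promoter sequences are from RefSeq, GRCh38.p14, and no coordinates were converted.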

Additional observations from a re-analysis of the deposited data

Results flagged for a closer look

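The effect of nucleotides differed with and without A771726 in 533 genes (limma interaction term over 12 libraries at 24 h, adjusted p under 0.05). Such a difference was tested for each of the named genes that nucleotides moved most. The interaction was positive for HIST1H2BB (2.74), HIST3H2A (2.57), HIST1H2BM (2.53), HIST1H3J (2.45), LINC01029 (2.45), HIST3H2BB (2.44), HIST1H1A (2.34), HIST1H2AL (2.12), HIST2H2BA (1.99) and SNHG12 (1.97). It was negative for GDF15 (-3.89), PVRL4 (-2.98), TP53I3 (-2.94), RPL13AP20 (-2.85), BTG2 (-2.83), TXNIP (-2.60), FDXR (-2.53), LINC01021 (-2.47), KRT8 (-2.39), BBC3 (-2.28) and CDKN1A (-2.12). These values rest on the same libraries with A771726 as the comparison itself and were not weighed further.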

How the results depend on the processing

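Across the alternatives run, 603 of the checks of single named genes kept their direction and their side of the threshold, 85 lost the call, 14 gained it and 8 changed sign. The gains were those of GAS5, MYC, DDX21, MTHFD2 and DHODH, the last only when all 12 libraries were fitted together (adjusted p = 0.0438). The sign changes were those of uncalled values: CDK9 (0.04659 with median-of-ratios scaling, 0.1216 without replicate 1 of A771726, 0.03445 without replicate 1 of A771726 with nucleotides, 0.09041 without both libraries that stood apart), HEXIM1 (0.08157 without replicate 1 of A771726), PLCG2 (-0.136 with quantile normalization, -0.02596 without replicate 1 of A771726) and SNORA72 (-0.1318 with length and GC trends removed). Over the runs that leave out 1 library, these ran from -0.2413 to 0.08157 for HEXIM1, -0.1841 to 0.1216 for CDK9 and -0.02596 to 0.4935 for PLCG2. Of the checks of 8 list medians, 117 were marked as the same and 27 as moved. The median of the ribosomal proteins changed sign, under quantile normalization.

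Counts are given as raised and lowered by nucleotides, called in the response, called in the interaction, fully and partly restored. A pseudocount of 0.1 gave 467 fully restored genes. No filter gave 181 raised, 620 lowered and 1045 interaction calls. A mean of at least 5 FPKM, which tests fewer genes, gave 50, 124, 489, 236, 194 and 14. Quantile normalization gave 10 partly restored. Equal FPKM sums gave 774 lowered, 3296, 1142, 598 and 118. The number of genes classed changed too, so these counts of full restoration do not track its share. With the 2-fold margin and the same response contrast, the share ran from 77.3% of 774 genes (equal FPKM sums) to 93.5% of 277 (quantile normalization). It was 83.2% of 561 genes with the pseudocount of 0.1. Fitting all 12 libraries together gave 466, 1038 and 2021 response calls. Setting zeros of expressed genes to missing left 0 genes called against DMSO (limma), beside 394 at an unadjusted p under 0.05 with the zeros kept. With a replicate block there were 1 raised and 9 lowered genes, 1952 response and 1114 interaction calls and 49 partly restored genes. Of the named calls 22 were lost, among them CDKN1A, TP53I3, HIST1H2BM, SNHG12 and ARNT2 (limma, adjusted p = 0.0626 to 0.073). Only A771726 and nucleotides alone had every correlation of same-numbered libraries over 0.1. The GC trends of replicates 2 and 3, however, had the same sign in all 4 groups.

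Alternatives chosen after seeing the data were leaving out both libraries that stood apart (218, 549, 1716 and 957, with 4 genes called against DMSO) and removing length and GC trends (449, 880, 2578 and 1550, with 47 partly restored). Leaving out 1 library at a time gave 7 to 72 raised, 38 to 330 lowered, 175 to 1716 response, 2 to 6 remaining, 253 to 726 interaction calls, 150 to 322 fully and 7 to 54 partly restored genes, and the margin of 1.5-fold gave 204. The cause of these changes was not tested. With 3 libraries a group an exact permutation test cannot go below 0.10. No partly restored gene passed the adjusted test for what remained at 24 h. Partial restoration of low genes or of less than 2-fold therefore cannot be resolved gene by gene, and the partial class only describes unadjusted intervals.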

Other observations

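A few genes outside the response set, chosen after their values were seen, also lay above DMSO in cells given A771726 with nucleotides. PLIN2, which encodes a lipid droplet coat protein and is another PPAR target, was at 149.8, 159.6 and 149.5 FPKM at 48 h against 113.6, 104.5 and 104.9 FPKM with DMSO, a difference of 0.50 (SE 0.07, adjusted p = 0.195, limma). At 24 h the difference was 0.18 (95% interval -0.08 to 0.43). AHRR, the repressor that the aryl hydrocarbon receptor induces, was at 3.16, 3.19 and 3.49 FPKM at 48 h against 2.45, 2.35 and 2.50 FPKM, a difference of 0.32 (adjusted p = 0.347), and of 0.37 (95% interval 0.10 to 0.63) at 24 h. TIPARP, another target of this receptor, differed by 0.25 at 24 h and 0.49 at 48 h (adjusted p = 0.46), and NQO1, a quinone reductase, by 0.00 and 0.38 (adjusted p = 0.306). CPT1A, the carnitine palmitoyltransferase of fatty acid oxidation, differed by 0.61 at 24 h (95% interval 0.20 to 1.03) and by 0.22 at 48 h. None of them passed the adjusted test at either time.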
